A study of Mus musculus with 3 samples.

Results

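The 10 genes described here encode proteases of the lysosome and inhibitors of these proteases. They were chosen by name, with earlier results of these data known. The genes are Ctsa, Ctsb, Ctsc, Ctsd, Ctsh, Ctsl, Ctsz, Lgmn, Cst3 and Cstb. All 10 had values among the 17551 genes of the deposited table, and they were described over 4668 cells of 4 mouse brains. Brains came from female C57BL/6 mice aged 2 to 3 months, either naive or carrying metastases of E0771 cells, a mouse mammary carcinoma line, about 2 weeks after injection into the carotid artery. All brains were perfused, digested with papain and enriched for mononuclear cells on a Percoll gradient. Each brain was stained with 6 antibodies that carry sequence tags and with a hashtag of its own, and the cells were pooled into 1 set of libraries (10x Genomics 3′ assay, version 2). Brains are named by their hashtag, because the sources used here do not say which hashtag marks a naive and which a metastatic brain, and no comparison of these conditions was made.

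Cathepsins are the main proteases of lysosomes. Most are cysteine proteases, Ctsd is an aspartic protease, Ctsa is a serine carboxypeptidase, and legumain (Lgmn) cuts after asparagine and matures several cathepsins. Cystatin C (Cst3) is secreted and inhibits cysteine cathepsins outside the cell and in the endocytic pathway, while cystatin B (Cstb) inhibits them in the cytosol. In brain, microglia and macrophages are known for high levels of these enzymes and of Cst3.

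The 3 antibody tags used to sort cells on the computer, independently of RNA, were read by 15-base barcodes in the deposited tag table. CD45 marks leukocytes, CD11b an integrin of myeloid cells, and CD86 a costimulatory protein of antigen-presenting cells.
CD45: tggctatggagcaga
CD11b: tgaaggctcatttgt
CD86: ctggatttgtgtatc

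Promoters of members are shown because all 10 members, had their highest mean in the same cluster. RefSeq windows (GRCm38.p6, 250 bases before to 50 after a start) were found for 7 of the 10 genes, 9 windows in all. The window was searched on both strands for CACGTG, the core of the element bound by the TFEB family of lysosomal transcription factors, and capitals mark it. It stood in 4 of the 9 member windows (Ctsa, Ctsd, Ctsl and Lgmn) and in 7.15% of all 32851 windows. The longer palindrome TCACGTGA, which contains CACGTG, stood in 2 of the 9 (Ctsa and Ctsd) and in 0.974% of all windows. GAGGAAGT, a motif bound by the myeloid factor PU.1, stood in 1 of the 9 (Ctsc) and in 3.20% of all windows. The only Ctsd window and 1 of the 2 Ctsa windows hold 2 copies of CACGTG each, and the Cst3 window holds none. Ctsa and Lgmn each have 2 windows, and the window at the outermost start of either gene holds no CACGTG. The only Ctsl window, on the minus strand, ends at base 64370770, inside the gene end at 64370772. It therefore belongs to an inner start.
Ctsd, chr7:142387778-142388077, minus strand: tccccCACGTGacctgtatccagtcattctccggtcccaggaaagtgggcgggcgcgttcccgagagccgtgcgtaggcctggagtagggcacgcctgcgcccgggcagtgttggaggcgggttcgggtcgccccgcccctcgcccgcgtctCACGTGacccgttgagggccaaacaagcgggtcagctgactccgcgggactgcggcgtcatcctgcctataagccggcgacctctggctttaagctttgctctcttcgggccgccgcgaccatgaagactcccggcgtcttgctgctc
Ctsa, chr2:164833523-164833822, plus strand: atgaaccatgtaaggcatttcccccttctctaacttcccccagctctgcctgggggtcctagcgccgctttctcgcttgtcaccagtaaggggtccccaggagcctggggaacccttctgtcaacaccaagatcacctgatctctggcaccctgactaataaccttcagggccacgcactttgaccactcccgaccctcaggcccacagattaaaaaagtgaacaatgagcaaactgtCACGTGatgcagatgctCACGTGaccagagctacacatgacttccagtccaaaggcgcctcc
Cst3, chr2:148875463-148875762, minus strand: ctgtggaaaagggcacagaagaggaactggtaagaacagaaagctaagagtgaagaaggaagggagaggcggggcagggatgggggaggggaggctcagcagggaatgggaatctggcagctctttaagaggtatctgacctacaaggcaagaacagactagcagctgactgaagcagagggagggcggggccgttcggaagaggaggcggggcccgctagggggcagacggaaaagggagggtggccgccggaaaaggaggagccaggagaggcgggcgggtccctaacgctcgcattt
The copies in Ctsd begin 245 and 98 bases before the start, and those in Ctsa begin 12 bases before and 5 bases after it. Such matches describe letters and not binding.

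Levels are given as the mean over cells of UMIs (counted transcript molecules) per 10000 UMIs of the cell, first within a brain and then as mean ± SD over brains with at least 10 cells of the cluster. Comparisons of level are made between cells and not between genes. The authors' table gives 11 clusters, numbered 0 to 10, without names. Cluster 3 (404 cells) was led by Ctss, C1qc and C1qb and had a median CD45 tag count of 7090; its cells carried markers of several myeloid types, and it keeps its number here. Cluster 6 (223 cells) was led by the granule genes Camp, S100a8 and Ngp, together with the neutrophil protease genes Elane, Prtn3 and Ctsg. Clusters 1, 4 and 9 were choroid plexus-like, endothelial-like and smooth muscle-like by their markers, and the others stay numbered. Markers of carcinoma epithelium were low, with Epcam at most at 0.17 in any cluster and Krt8 at 2.84 in cluster 0. Rhox5, a homeobox gene known from tumour lines, was at 4.68, 4.88, 4.81 and 4.11 in clusters 0, 2, 7 and 10 and at 0.73, 0.69 and 0.47 in clusters 1, 3 and 6. The brains differed in depth: cells of hashtags 1, 2, 3 and 4 numbered 844, 410, 1385 and 2029, with median UMIs per cell of 4370.5, 5599.5, 12450 and 12806. Cluster 3 itself was alike in depth, with medians of 3972, 3274, 3734 and 3897 UMIs. No 2 cells shared a barcode.

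All 10 members had their highest mean in cluster 3. For 8 of the 10, every brain in cluster 3 lay above every brain in every other cluster, a property of 2.26% of the 9355 genes seen in at least 5% of cells. The exceptions were Ctsl and Cstb. The clusters were made from the same RNA values, so these figures describe the clusters and no test was made. Within each member's order of 11 clusters, the brains of neighbouring clusters overlapped for 8 to 10 of the 10 neighbouring pairs.

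**Figure D1:**
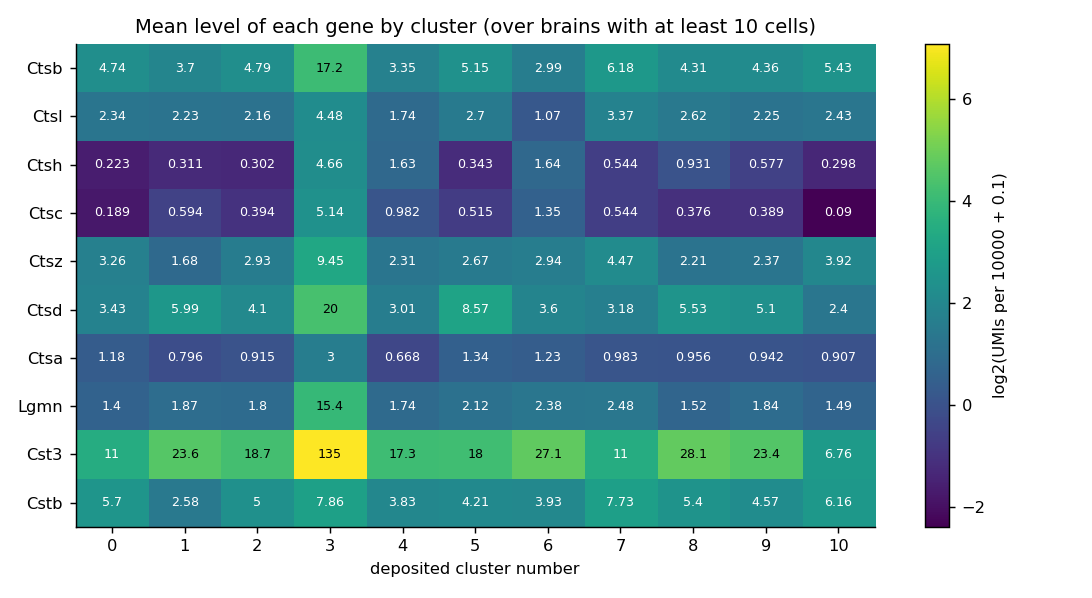
Mean level of each member (rows) in each deposited cluster (columns), in UMIs per 10000 as printed in the cells, averaged over brains with at least 10 cells. Colour is log2 of the level plus 0.1. Cluster 3 holds the highest value in every row, from 3.00 for Ctsa to 135 for Cst3.

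Among the cysteine cathepsins, legumain aside, Ctsc and Ctsh stood out from the other clusters by the widest margins. Ctsc, a dipeptidyl peptidase that activates granule serine proteases, measured 4.61, 4.79, 4.47 and 6.67 UMIs per 10000 in cluster 3 of the brains with hashtags 1 to 4. The hashtag 4 brain was the highest and the other 3 lay close together. The mean, 5.14 ± 1.03 (SD, n = 4), was 3.80 times that of the next cluster, cluster 6. Cluster 6 means, here and below, cover the brains with hashtags 1, 3 and 4 (171, 26 and 17 cells), because hashtag 2 had 9 cells there. Ctsh, an aminopeptidase, measured 3.10, 4.62, 4.98 and 5.92, a mean of 4.66 ± 1.17 (SD, n = 4) and 2.84 times the level of cluster 6. Its lowest value was in the hashtag 1 brain. To compare the share of cells with a UMI at equal depth, every cell was thinned to 2495 UMIs, the smallest total, which left out no cell. A mean of 64.9% of cluster 3 cells then had a Ctsc UMI, against 3.83% in cluster 0 (81.1% and 11.7% before thinning, at median depths of 3815 and 13009 UMIs). Clusters 6 and 4 were at 24.8% and 18.6% after thinning.

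The widely expressed cathepsins Ctsb, Ctsz and Ctsl differed less between clusters. Ctsb, an endopeptidase that also trims peptides, measured 12.6, 11.4, 18.3 and 26.5 in cluster 3. The brains with hashtags 3 and 4 were the higher ones, and the mean was 17.2 ± 6.88 (SD, n = 4), or 2.78 times that of cluster 7. Cluster 7 had at least 10 cells only in the brains with hashtags 3 and 4, so its means cover these brains alone. Ctsz, a carboxypeptidase, measured 7.67, 10.0, 9.12 and 11.04 there, with a mean 2.12 times that of cluster 7. Ctsl measured 2.79, 4.35, 7.55 and 3.23, so that the hashtag 3 brain was well above the other 3. Its mean of 4.48 ± 2.15 (SD, n = 4) was 1.33 times the 3.37 ± 0.37 (SD, n = 2) of cluster 7, a cluster led by cell cycle genes. The brains of the 2 clusters overlapped. Cluster 7 measured 3.63 and 3.11 in the brains with hashtags 3 and 4, below cluster 3 of the same brain each time.

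The aspartic protease Ctsd, the serine carboxypeptidase Ctsa and the asparaginyl endopeptidase Lgmn were also highest in cluster 3. Ctsd measured 22.5, 20.9, 12.6 and 23.9, with the hashtag 3 brain low. Its mean of 19.99 ± 5.06 (SD, n = 4) was 2.33 times that of cluster 5, where the mitochondrial share of UMIs was 14.8%. Ctsa, which also protects lysosomal glycosidases, was the steadiest member over brains: 3.22, 2.62, 3.09 and 3.08 in cluster 3, its highest brain 1.23 times its lowest. Lgmn measured 12.4, 16.6, 18.6 and 13.8 in cluster 3. That mean, 15.4 ± 2.78 (SD, n = 4), was 6.20 times the next cluster's, the widest margin of any member, and Lgmn in the other clusters lay between 1.40 and 2.48.

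The inhibitors had opposite orders of brains. Cst3 in cluster 3 measured 213 and 204 UMIs per 10000 in the brains with hashtags 1 and 2, and 62.8 and 60.8 in those with hashtags 3 and 4. The first pair was clearly above the second, and the highest brain was 3.495 times the lowest. Cstb measured 4.77, 3.99, 10.1 and 12.6 in the same order of hashtags, so that its first pair was below the second. The mean of Cstb in cluster 3, 7.86 ± 4.17 (SD, n = 4), was 1.02 times the 7.73 ± 0.59 (SD, n = 2) of cluster 7. That cluster 7 mean covers only the brains with hashtags 3 and 4, at 7.32 to 8.15. Cluster 3 was above this range in the same brains and below it in those with hashtags 1 and 2. The clusters therefore overlapped over all brains but not within the shared ones. Cst3 in the choroid plexus-like cluster 1 measured 23.2, 23.6, 24.4 and 23.0, with no such gap between brains. Ttr, the most abundant choroid plexus marker of the list, was at 221 in cluster 3 and at 3167 in cluster 1. After thinning, 99.7% of cluster 3 cells and 81.8% of cluster 0 cells, the lowest share of any cluster, had a Cst3 UMI. Clusters 1, 8 and 5 were at 98.5%, 98.1% and 96.4%, so this share hardly set cluster 3 apart. How much of the cluster 0 share is free RNA was not tested.

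**Figure D2:**
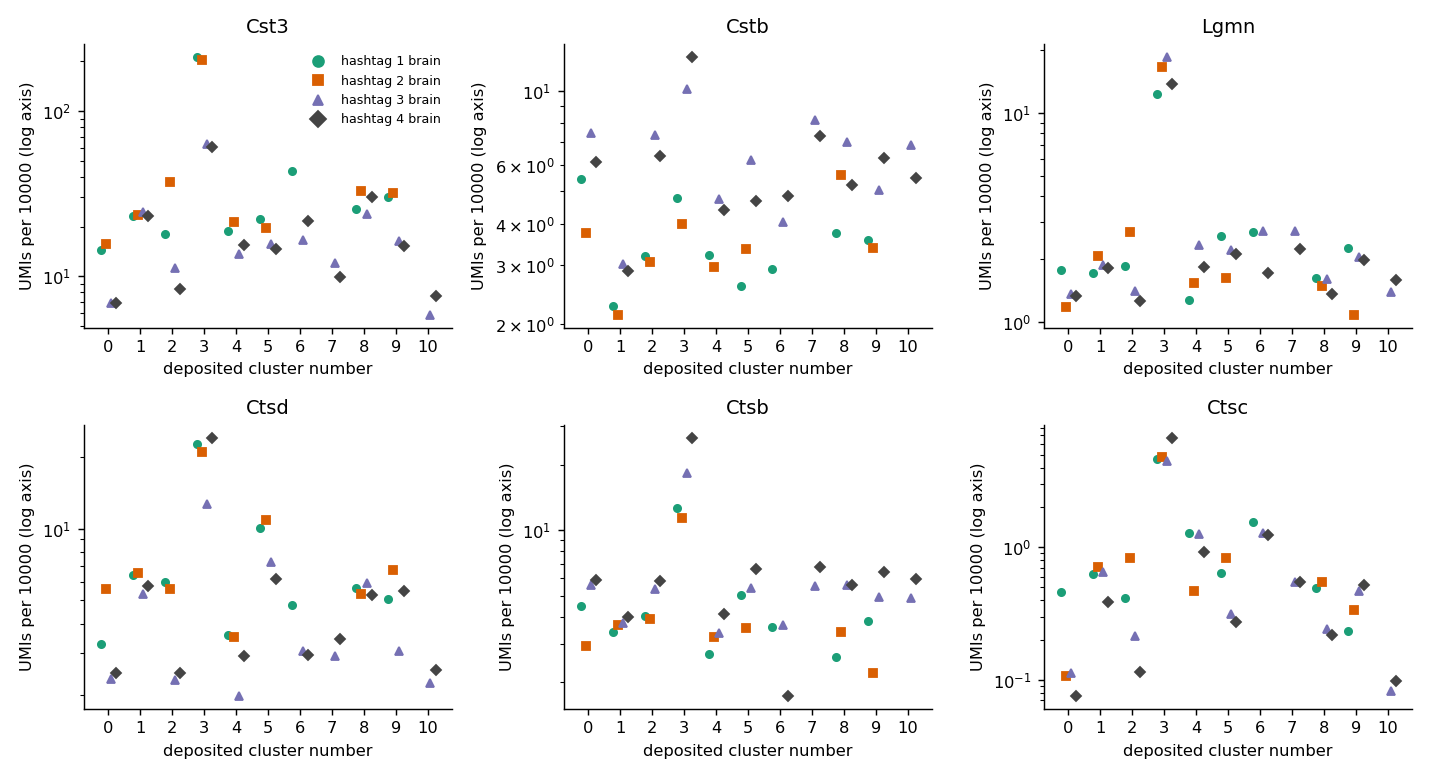
Level of 6 members in UMIs per 10000 (log axis) by deposited cluster, 1 point for each brain with at least 10 cells of the cluster. In cluster 3, Cst3 of hashtags 1 and 2 lies at 213 and 204 and that of hashtags 3 and 4 at 62.8 and 60.8, while Ctsb and Cstb have the reverse order.

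The same order of brains recurred outside cluster 3. Over the 8 clusters with at least 10 cells in every brain, Cst3 was higher in both brains with hashtags 1 and 2 than in both with hashtags 3 and 4 in 6 clusters, an order that 4.64% of genes held in at least 6. Ctsd held it in 5 clusters, and Ctsl held the reverse order in 5. The share of all genes at that count was not computed. The reverse order held for Ctsb in 8 of 8 clusters and for Cstb and Ctsz in 7 of 8, and 4.21% of genes held it in at least 7. In cluster 3 alone, 19.0% of 6672 genes had the first order and 24.4% the reverse. Ctsb in cluster 0, for example, measured 4.46, 2.95, 5.61 and 5.92. The pairs of brains also differ in depth over all cells, as given above, and in the cells that cluster 3 holds: the 9 microglia markers summed to 39.8, 48.9, 11.7 and 13.7 UMIs per 10000 there, and the 10 markers of marrow-derived monocytes and macrophages to 21.8, 16.9, 42.2 and 47.8. Markers of other sources were present in cluster 3 as well, the 10 neutrophil markers at 115, 24.7, 37.8 and 62.0 and the 8 choroid plexus markers, among them the abundant Ttr, at 222, 204, 189 and 268. The part of depth, cell makeup and condition in these orders was not tested.

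The cells of clusters 3 and 6 were therefore also described by the markers they carry. A cell counted as carrying a type's markers when at least 3 of that list were seen and more than of any other immune list, which is a range of marker counts and not a cell type. Microglia markers led in 87 cells (84 in cluster 3), of which 7 were at the minimum of 3 markers and 28 led by 1 marker. Monocyte and macrophage markers led in 244 cells (207 in cluster 3), and neutrophil markers in 128. In the hashtag 1 brain only 3 of 33 cells led by monocyte and macrophage markers were in cluster 3 and the rest in cluster 6, against 97 of 100 and 102 of 106 in the brains with hashtags 3 and 4. The hashtag 2 brain had 5 such cells and is left out of means.

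Cst3 separated these sets of cells. It measured 295, 251.1, 119 and 135 UMIs per 10000 in cells led by microglia markers (12, 25, 18 and 32 cells in the brains with hashtags 1 to 4). In cells led by monocyte and macrophage markers it measured 58.2, 51.4 and 45.0 in the brains with hashtags 1, 3 and 4. Every brain's microglia-marker value was above all 3 of these. Within the microglia-marker cells the brains with hashtags 1 and 2 remained above those with hashtags 3 and 4. Cstb had the other order between the sets, 4.79 ± 1.85 (SD, n = 4) against 9.84 ± 5.15 (SD, n = 3), but the ranges overlapped: 3.29 to 7.29 in microglia-marker cells and 3.92 to 13.3 in the others.

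Of the proteases, Ctsd separated the 2 sets by brain and Ctsb and Ctsc did not. Ctsd was 25.2 ± 6.25 (SD, n = 4) in microglia-marker cells and 10.3 ± 4.996 (SD, n = 3) in cells led by monocyte and macrophage markers, and the brains did not overlap. Lgmn was 16.5, 20.3, 22.6 and 18.3 in the first set. In the second it was 3.11 in the hashtag 1 brain, whose cells were mostly in cluster 6, and 18.4 and 12.3 in the brains with hashtags 3 and 4. The brains overlapped for Ctsb and Ctsc: Ctsb spanned 10.0 to 25.9 and 4.04 to 22.1, and Ctsc 4.03 to 5.79 and 3.55 to 7.63. High Ctsd was not particular to microglia-marker cells. Neutrophil-marker cells measured 5.95 (hashtag 1), 8.96 (hashtag 3) and 37.6 (hashtag 4) for Ctsd. For Ctsb they measured 4.23, 11.7 and 30.1 in that order. Only their hashtag 4 values, from 20 cells, exceeded the highest microglia-marker brain, at 30.5 for Ctsd and 25.9 for Ctsb.

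**Figure D3:**
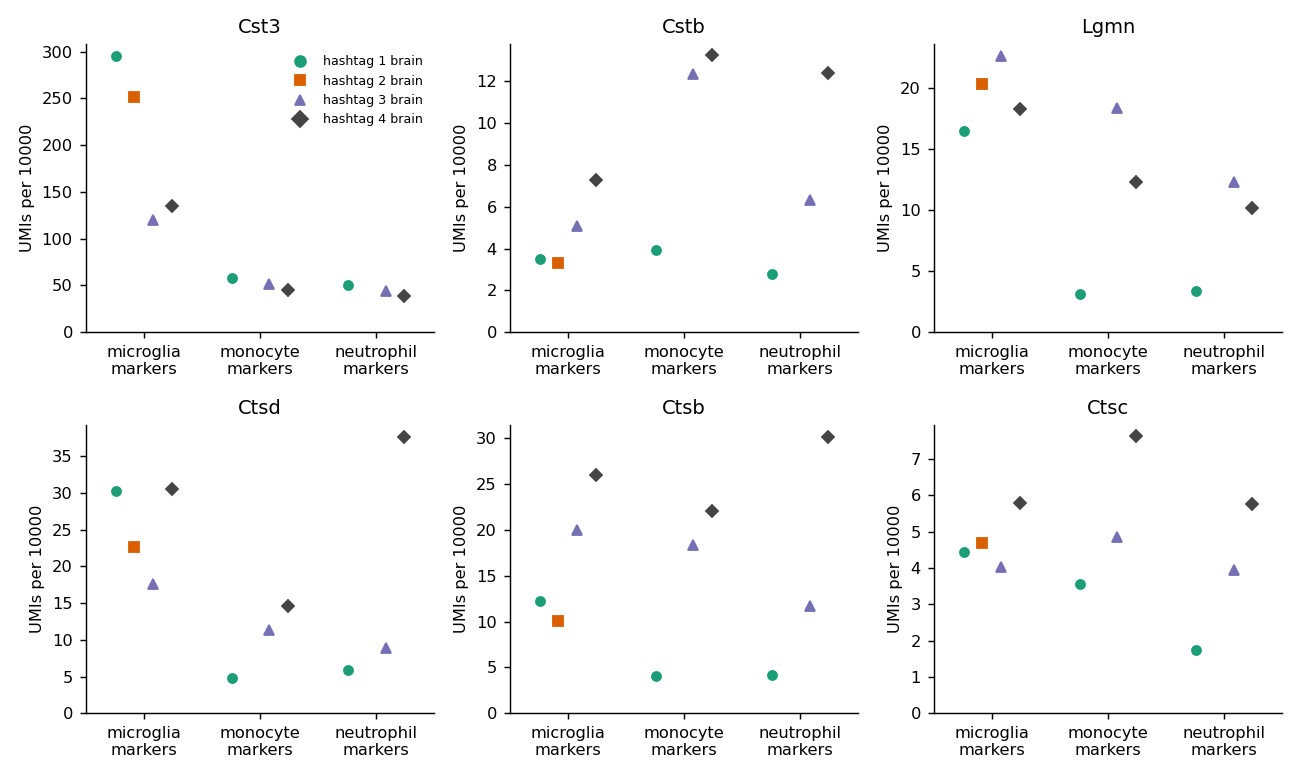
Level of 6 members in UMIs per 10000 (axes from 0) in cells of clusters 3 and 6 led by microglia, monocyte and macrophage, or neutrophil markers, 1 point for each brain with at least 10 such cells. Cst3 lies between 119 and 295 in cells with microglia markers and between 45.0 and 58.2 in cells with monocyte and macrophage markers.

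The CD45 tag gives a split of all cells that does not use RNA. Cells with at least 300 CD45 tag counts (911 cells) were compared with the rest in each brain, so that every brain gave 1 profile on each side. The profiles, as log2 of the mean level plus 0.1, were tested with limma over 9355 genes with the brain as a block, and the threshold was a Benjamini-Hochberg adjusted p of 0.05. Of the 10 members, 7 were higher on the CD45-high side and 0 lower, against 7.6% of all genes tested that were higher. The members' median log2 difference was 1.28, and that of all genes was -0.06. The sides also differ in depth, with medians of 3502 to 4471 UMIs per cell on the high side and 4670.5 to 13823 on the low side, and in the share of cluster 3 cells (9.13% to 60.4% of the high side); the part of depth was not tested.

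Ctsc showed the widest difference, with 1.89, 2.80, 3.18 and 4.13 UMIs per 10000 in CD45-high cells and 0.596, 0.607, 0.290 and 0.164 in the others. The sides did not overlap, and the log2 difference was 2.66 (SE 0.38, limma adjusted p = 0.00367). Ctsh measured 1.57, 2.88, 3.59 and 3.85 against 0.463, 0.581, 0.364 and 0.286, a log2 difference of 2.51 (SE 0.30, limma adjusted p = 0.00136). For Lgmn the high side held 3.71, 9.58, 13.003 and 8.97, and the low side 1.66, 1.79, 1.45 and 1.39. In each of these genes the hashtag 1 brain was the lowest on the high side, and it was also the brain with the fewest cluster 3 cells there, 9.13%. The log2 difference of Lgmn was 2.29 (SE 0.31, limma adjusted p = 0.00314).

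Cst3 measured 59.3, 122, 50.8 and 45.8 on the CD45-high side and 20.7, 21.6, 10.7 and 9.58 on the other. It was higher in 4 of 4 brains, by 2.12 on the log2 scale (SE 0.30, limma adjusted p = 0.00356). Ctsz and Ctsa were higher by 1.27 and 1.15 (limma adjusted p = 0.00840 and 0.00762). Ctsb measured 4.78, 7.91, 13.2 and 17.8 against 3.39, 3.40, 5.01 and 5.54, and its sides overlapped across brains though each brain was higher on its own high side. Its log2 difference of 1.18 (SE 0.25) had a limma adjusted p of 0.0226, which became 0.0762 without the hashtag 2 brain, 0.0902 without the hashtag 3 brain and 0.0896 without the block for brain. Ctsb also failed to pass with edgeR (0.0701), with a pseudocount of 1 (0.0515), with no filter on low genes (0.0539) and in own-hashtag cells (0.0863).

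Ctsd, Cstb and Ctsl did not pass. Ctsd measured 6.76, 12.6, 9.47 and 16.1 on the high side and 5.88, 6.27, 3.00 and 3.01 on the low side, without overlap. Its log2 difference was 1.299 (SE 0.35, limma adjusted p = 0.0523); the adjusted p was 0.0442 without the hashtag 1 brain and 0.0434 without the block for brain. Cstb differed by 0.56 (SE 0.21, limma adjusted p = 0.123) with a positive value in 4 of 4 brains. Ctsl differed by 0.38 (SE 0.25, limma adjusted p = 0.376), with 3 of 4 brains positive and the hashtag 1 brain at -0.34.

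Of the 911 CD45-high cells, 305 (33.5%) were outside clusters 3 and 6. When clusters 3 and 6 were left out, a choice made after seeing the data, 4 members were still higher: Ctsc by 1.35, Cst3 by 1.34, Ctsh by 1.15 and Lgmn by 1.06 on the log2 scale (limma adjusted p = 0.00950, 0.0253, 0.0410 and 0.0235). Of all 9460 genes tested in that way, 1.71% were higher. Ctsa, Ctsz and Ctsb then had differences of 0.57, 0.52 and 0.42 and did not pass. Whether droplets with more than 1 cell carried the tag and the RNA together in these clusters was not tested. When instead the 305 cells were left out, 8 members were higher, Ctsd among them, and so were 8.76% of the 9358 genes tested.

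**Figure D4:**
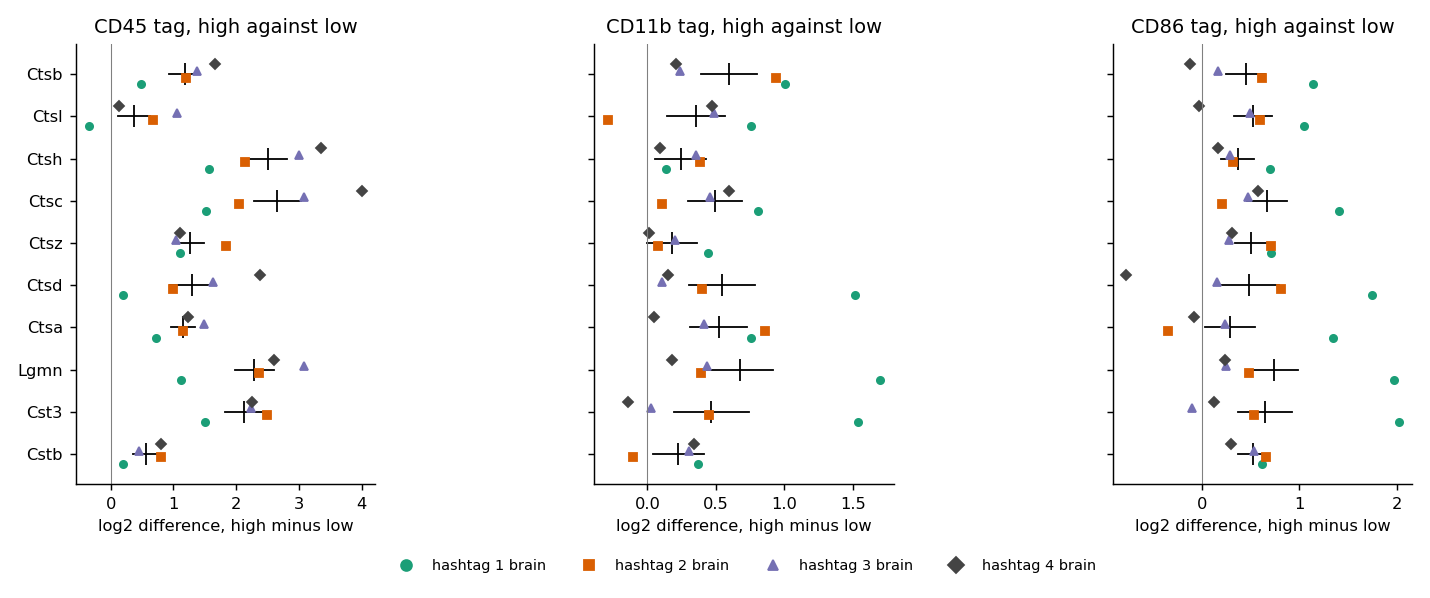
Log2 difference of each member between tag-high and tag-low cells, for the CD45, CD11b and CD86 tags. Symbols are the 4 brains, the upright mark is limma's estimate and the bar is 1 SE to each side; for CD45 only Ctsl in the hashtag 1 brain lies below 0.

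Within clusters 3 and 6, cells above and below each brain's median of the CD11b or CD86 tag were compared in the same way over 6559 genes. No member passed with either tag. For CD11b, 0.107% of genes passed in either direction. All 10 members had positive differences, with a median of 0.48 against -0.02 for all genes. With unadjusted limma p-values under 0.05, 5 members were higher (Ctsa, Ctsb, Ctsc, Ctsd and Lgmn), against 5.24% of all genes that were higher. EdgeR and DESeq2 called 0 members. Lgmn had the widest difference, 0.68 (SE 0.24, limma adjusted p = 0.398). Its values by brain were 1.70, 0.39, 0.43 and 0.18, with the hashtag 1 brain well above the other 3.

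For CD86, 0.0152% of genes passed in either direction and 0 members did so with limma, edgeR or DESeq2. All 10 members again had positive estimates, with a median of 0.51 against 0.04 for all genes. With unadjusted limma p-values under 0.05, 7 were higher, against 6.42% of all genes that were higher. Cstb was positive in every brain, at 0.62, 0.66, 0.54 and 0.30 (estimate 0.53, SE 0.16, limma adjusted p = 0.385). Cst3 was at 2.02 in the hashtag 1 brain and between -0.11 and 0.54 in the others.

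The tag-high and tag-low cells also differed in which cluster they came from. By CD86, cluster 3 made up 22.6%, 100%, 95.6% and 98.1% of the high cells and 0%, 59.1%, 75.8% and 85.8% of the low cells. By CD11b it made up 15.6%, 85.7%, 93.3% and 98.1% of the high cells and 6.25%, 72.7%, 78.0% and 85.8% of the low cells. Markers of cell types moved with the CD11b tag: the 10 neutrophil markers summed to 1988, 325, 130 and 111 in high cells and 206, 34.9, 79.1 and 81.3 in low cells. The 6 NK cell markers summed to 0.145, 2.43, 1.24 and 0.903 against 0.477, 13.9, 5.99 and 2.34. The 9 microglia markers summed to 17.1, 42.0, 11.2 and 13.5 in high cells and 3.37, 39.9, 9.83 and 12.3 in low cells. With CD86 the neutrophil markers summed to 1351, 7.63, 82.2 and 49.8 in high cells and 858, 338, 127 and 142 in low cells. The microglia markers summed to 17.8, 46.4, 9.68 and 13.6 in CD86-high cells and 3.04, 35.7, 11.3 and 12.2 in CD86-low cells. Depth was also higher in CD11b-high cells of every brain, with medians of 4041, 4357, 4517 and 4436 UMIs against 3504, 2952.5, 3435 and 3532. The same held for CD86, with 4137, 4357, 4274 and 3975 UMIs against 3522, 2946.5, 3446 and 3825.5. The part of these markers and of depth in the members' differences was not tested. In cluster 3 cells alone, a comparison added after seeing the data, Cst3 differed by 0.00 with CD11b and 0.05 with CD86, and Ctsc by 0.03 and -0.02. Ctsb still differed by 0.52 and 0.57, and Cstb by 0.21 and 0.75. None of these passed.

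Other genes of the pathway were read from lists. Of 7 other cathepsins, 3 were tested with CD45 and 1 was higher: Ctss, a cathepsin of antigen-presenting cells, with 6.91, 14.6, 24.7 and 21.7 UMIs per 10000 on the high side and 0.692, 0.654, 0.560 and 0.577 on the low side. Its log2 difference was 4.42 (SE 0.34, limma adjusted p = 0.000162). Ctsg, a granule serine protease, was highest in cluster 6 at a mean of 5.08. It was lower in CD11b-high cells, with a log2 difference of -2.73 (SE 0.31, limma adjusted p = 0.00423), in 4 of 4 brains. That call was lost without the block for brain (adjusted p = 0.826), without the hashtag 1 brain (0.0924), with pseudocounts of 0.01 and 1 (0.235 and 0.0609), in own-hashtag cells (0.630) and by tag share (0.0874), and it held with edgeR and DESeq2. The 5 granule precursor markers summed to 14.8, 6.14, 14.2 and 8.22 in CD11b-high cells and to 45.1, 8.48, 18.8 and 11.4 in CD11b-low cells of the brains with hashtags 1 to 4, and their part in the result was not tested. Ctsk, a collagen-degrading cathepsin, was highest in cluster 5 at 2.89, and 61.3% of its 538 UMIs lay there. Only 8 of 20 other cystatins and stefins were measured and 1 was tested, Cst6, with a CD45 difference of -0.46 (limma adjusted p = 0.401). Cst7, an inhibitor that acts in the endocytic pathway, was highest in cluster 6 at 0.795.

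Of 33 other lysosomal proteins, 32 were tested with CD45, and 10 were higher and 0 lower, against 7.6% of all genes that were higher. Their median log2 difference was 0.47. Among those higher were Laptm5 at 3.66, the activator protein Gm2a at 1.78 and Hexa at 1.49 (limma adjusted p = 7.03e-05, 0.0485 and 0.00251). The Gm2a call was lost under 10 of its 18 alternatives. Other calls among these 10 were lost under up to 10 of 18 alternatives, that of Hexa under 1 and that of Laptm5 under 0. Among 3 serpins tested, Serpinb1a, an inhibitor of neutrophil proteases, was higher by 1.92 (limma adjusted p = 0.00762), and Serpinb6a differed by -0.72 (limma adjusted p = 0.0452), a call lost under 13 of 18 alternatives, among them each brain left out and the fit without the block (0.0688). Of the TFEB family, Tfe3 was higher by 1.19 (limma adjusted p = 0.00818) and Mitf, at -0.58, did not pass. None of 6 genes that sort enzymes to lysosomes passed. With CD11b or CD86, 0 of 32 lysosomal proteins passed. With unadjusted limma p-values under 0.05, 5 and 6 of them were higher, against 5.24% and 6.42% of all genes.

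Across 39 profiles, each 1 cluster in 1 brain, the genes whose log2 levels followed a member most closely were listed by Pearson's r over 9355 genes. The profiles share the pool, and cluster 3 weighs on every r. Lgmn was most like the complement genes C1qa, C1qb and C1qc (r = 0.93, 0.93 and 0.92). Ctsb was most like Npc2, Gpnmb and its fellow member Ctsz (0.91, 0.88 and 0.83), and Ctsd most like Apoe, Psap and Cst3 (0.89, 0.88 and 0.83). Cst3 followed Skil, Apoe and Creg1 (0.87, 0.85 and 0.84), and Cstb followed Lgals3, Mrpl52 and Grn (0.83, 0.82 and 0.79). Ctsl had the lowest values, 0.71 with Ctsb, 0.70 with Npc2 and 0.68 with Cmas. For Ctsh the leading genes were Sat1, Itm2b and Lyl1 (0.92, 0.92 and 0.90), for Ctsz Evi2a, Hk2 and Ccl2 (0.90 each), for Ctsc Ogfrl1 and Sdcbp (0.86 each), and for Ctsa Cd84, Aif1 and Nckap1l (0.87, 0.83 and 0.81). Between members, r was lowest for Cst3 with Cstb and for Ctsd with Cstb, at -0.17 and -0.08, and was 0.02 for Ctsc with Cstb and 0.05 for Ctsc with Ctsl.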

How the data were processed

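RNA, antibody tags and hashtags were measured in 1 pool of cells from 4 brains. For each cell and gene the authors deposited a natural log value, ln(1 + UMIs per 10000). The deposited cell table holds the authors' UMI and tag counts, the mitochondrial fraction, hashtag classes and clusters. Cell Ranger 2.1, Seurat 2.3.4 and mm10 stand in the submitters' processing notes without roles, and CITE-seq-Count 1.3.4 in the design text. How the authors filtered cells is not stated in the sources used here. Every deposited cell was kept, and doublets were not called.

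UMI counts were recovered from the deposited values, and 99.8% came out whole within 0.01. Per cell the total ranged from 2495 to 43038. Tests used limma 3.58.1 in R 4.3.3 on log2(mean per 10000 UMIs + 0.1), which understates the change of low genes, for genes seen in at least 5% of cells, with Benjamini-Hochberg adjustment. Both sides of a tag come from the same animal, so brain was the block. Alternatives were edgeR 4.0.16 and DESeq2 1.42.0 on recovered counts, other pseudocounts, filters, scalings and tag thresholds, no block, and each brain left out. The test was tried on simulated data. With brain as the block, limma p-values set the difference between sides against its variation over these 4 brains, whose conditions are unknown. The variance of each gene was moderated by that of all genes. The members and lists were chosen with earlier results of these data known. Genes named beside the members are, per list and tag, up to 4 in each direction with the largest change among those that passed, and the 3 most like each member; list genes that did not pass, and Ctsk and Cst7, were named after their values were seen. Some genes that this rule names are not reported here. Of 8 placental cathepsins, 0 had values used here.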

Additional observations from a re-analysis of the deposited data

Results flagged for a closer look

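Of 110 sets of 4 brain values, 8 had 1 brain far from the other 3 by Dixon's criterion, and chance gives about 1 in 20. By level in UMIs per 10000, Ctsa in cluster 0 was 2.06 in the hashtag 2 brain (14 cells) and at most 0.913 in the others. Ctsc in cluster 0 was 0.460 in the hashtag 1 brain, with the others at 0.0755 to 0.112. Ctsc in cluster 3 was 6.67 in the hashtag 4 brain, against 4.47 to 4.79. Ctsl in the endothelial-like cluster 4 was 2.17 in the hashtag 4 brain, against 1.56 to 1.61.

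By log2 difference, Ctsz between CD45 sides was 1.84 in the hashtag 2 brain, against 1.04 to 1.11. Lgmn between cells high and low for CD11b was 1.70 in the hashtag 1 brain, against 0.18 to 0.43, and between cells high and low for CD86 1.98 there, against 0.24 to 0.48. Cstb between cells high and low for CD11b was -0.11 in the hashtag 2 brain, against 0.30 to 0.37.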

How the results depend on the processing

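The count of members higher with CD45 (7) ran from 6 to 8 over the other alternatives and was 4 without clusters 3 and 6. All 10 members were highest in cluster 3, and 9 were so without the hashtag 3 or the hashtag 4 brain. No member passed with CD11b or CD86 under any alternative. Against 986 genes past the CD45 threshold, 538 passed with cells of at least 80% own hashtag, 562 with edgeR, 474 among genes seen in at least 20% of cells, 162 without clusters 3 and 6, 1738 without CD45-tagged cells outside them, and 542 to 1225 with 1 brain left out. Of these 986, 711 were higher and 275 lower. EdgeR, with its own scaling, gave 546 and 16, and DESeq2 677 and 103. Without the replicate block the CD45 count was 852, with 7 members higher.

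Against 7 genes with CD11b, 0 passed with cells of at least 80% own hashtag, in cluster 3 alone, without the block or with a pseudocount of 0.01; 2 passed among genes seen in at least 20% of cells, 3 with no filter, 23 by share of the tags, and 4 to 17 with 1 brain left out (4 without hashtag 1, 17 without hashtag 4). Against 1 gene with CD86, 12 passed with DESeq2, 19 with edgeR, 5 with a pseudocount of 1, and 1 to 11 with 1 brain left out (11 without hashtag 2). None, 0 in each case, passed with the pseudocount of 0.01, the stricter filter, the own-hashtag cells, the tag share, cluster 3 alone or no block. Signs turned for Cstb with CD11b in own-hashtag cells (-0.0224), and with CD86 for Ctsa in cluster 3 alone (-0.0992) and without the hashtag 1 brain (from -0.0683 there to 0.499 without the hashtag 2 brain), and for Ctsc in cluster 3 alone (-0.0242). The causes were not tested. In cluster 3 the brains with hashtags 1 and 2 gave 21 and 34 cells, which limits the precision of their levels.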
